A study of Mus musculus with 24 samples.

Results

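Guanylate-binding proteins (GBPs) and immunity-related GTPases (IRGs) are interferon-inducible GTPases that defend the inside of a cell. GBPs coat bacteria and the vacuoles of intracellular parasites and help expose bacterial products to inflammasomes. IRGs fall into regulators that sit on the cell's own membranes, such as Irgm1, Irgm2 and Igtp, and effectors that load onto a pathogen vacuole and break it, such as Iigp1. In macrophages both families are classic targets of interferon-gamma and type I interferon and are also driven by the transcription factor IRF1. The 10 genes described here were taken by name from the 2 families: the GBPs Gbp2, Gbp3, Gbp5 and Gbp7, and the IRGs Irgm1, Irgm2, Igtp, Ifi47, Tgtp2 and Iigp1. These genes were chosen with earlier results of these data known. They are 10 of 52636 gene models listed in each library, and all 10 passed the filter that left 14435 genes for testing.

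RNA came from primary bone marrow-derived macrophages, which are macrophages grown in culture from mouse marrow precursors. There were 4 groups of 6 libraries: Ninj1KO_Pam3 (cells of Ninj1 knockout mice, stimulated with Pam3), WT_Pam3 (cells of wild-type C57BL/6 mice, stimulated with Pam3), Ninj1KO_NoPrime (knockout cells without priming) and WT_NoPrime (wild-type cells without priming). Ninj1 encodes ninjurin-1, a membrane protein that drives plasma membrane rupture in dying cells, and Pam3 is a synthetic lipopeptide that stimulates Toll-like receptor 2. The labels state neither the dose and time of Pam3, nor the ages of the mice, nor which stretch of Ninj1 was deleted. The labels give the sex of wild-type mice as male and none for knockout mice, so sex and genotype cannot be told apart. They name no animal, culture or batch either, so every p-value rests on library-to-library spread that may be technical.

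Libraries held 31302011 to 40663152 counts. Ninj1 itself was lower in all 6 knockout libraries than in all 6 wild-type libraries under both treatments, with log2 fold changes of -0.92 ± 0.09 after Pam3 and -0.88 ± 0.09 in NoPrime (± SE; edgeR quasi-likelihood test, adjusted p = 4.0e-07 and 7.3e-07). Ninj1 counts were not at 0 in knockout cells, with 409 to 479 CPM (counts scaled to a common library size) in Ninj1KO_Pam3 and 151 to 179 CPM in Ninj1KO_NoPrime. All 8 macrophage markers were detected in every group. The summed level of 10 NK and T cell markers, which would come with the cells that make interferon-gamma, was 1.01 to 1.96 CPM over the 4 groups, and Gzma was at 0 in all of them. A pair of libraries stood apart for the GTPase genes, and results that rest on them are given with and without them: Ninj1KO_NoPrime replicate 1 had the highest level of its group for all 10 genes, and WT_Pam3 replicate 5 had the lowest of its group for 6 genes and the highest for 2. The second of these differed most from its group across the whole transcriptome. Chi-square per degree of freedom over all genes was 116 to 142 in its 5 replicate pairs and 2.54 to 16.2 in the other 55 pairs of the 4 groups. In the pairs of Ninj1KO_NoPrime replicate 1 it was 10.97 to 16.2, against 2.54 to 9.76 in the other pairs of that group.

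The GBP genes lie together on chromosome 3 (GRCm38, plus strand): Gbp5 at chr3:142493978-142522344, Gbp7 at chr3:142530342-142550149, Gbp3 at chr3:142560026-142573209 and Gbp2 at chr3:142620602-142638008. Most of the IRG genes lie on chromosome 11: Irgm1 at chr11:48861968-48871683 and Tgtp2 at chr11:49057194-49064206 on the minus strand, and Ifi47 at chr11:49076587-49096974, Igtp at chr11:58199556-58207591 and Irgm2 at chr11:58199618-58222782 on the plus strand. All 10 genes are annotated as protein-coding. Unique read counts of close copies are uncertain: 86.6% of the 50-base stretches of Tgtp2 transcripts also occur in other genes, mostly in its neighbour copy Tgtp1, so the level of Tgtp2 is uncertain. Igtp and Irgm2 share 162 exonic bases on the same strand, and Gbp7 shares 637 with the pseudogene Gm43802. The other 6 genes share under 5% of their 50-base stretches with another gene.

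Interferon acts on such genes through 2 short DNA elements near the start site: the interferon-stimulated response element (ISRE, searched as GAAA, any 2 bases, GAAA) bound by IRF-containing complexes, and the gamma-activated site (GAS, searched as TTCNNNGAA), named for the interferon-gamma response. Both strands of a window from 250 bases before to 50 bases after each RefSeq start (GRCm38.p6) were searched, and 9 of the 10 genes had such a window. An ISRE core was found for 8 of the 9, all but Ifi47, and in 3.44% of all 32851 windows. A GAS was found for 5 of the 9 (Gbp5, Gbp7, Igtp, Irgm2 and Tgtp2), and in 8.30% of all windows. A kappa-B-like motif (GGG, any 3 bases, TTCC), of the kind bound by NF-kB, was found for Gbp5 and Gbp2, and in 5.56% of all windows. The 120 bases before the start are shown for 3 genes whose elements differ (Gbp2, Gbp7 and Irgm1) and 3 that share kind and spacing (Tgtp2, Igtp and Irgm2), 5′ to 3′ on the gene's strand, with ISRE core and GAS matches in capitals.
Gbp2 (chr3:142620543-142620662, plus strand): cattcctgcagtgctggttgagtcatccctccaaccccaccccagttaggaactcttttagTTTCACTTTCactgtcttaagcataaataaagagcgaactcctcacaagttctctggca
Gbp7 (chr3:142530216-142530335, plus strand): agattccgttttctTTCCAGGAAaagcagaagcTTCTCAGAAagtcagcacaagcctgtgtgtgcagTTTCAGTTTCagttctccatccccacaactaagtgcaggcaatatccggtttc
Irgm1 (chr11:48871421-48871540, minus strand): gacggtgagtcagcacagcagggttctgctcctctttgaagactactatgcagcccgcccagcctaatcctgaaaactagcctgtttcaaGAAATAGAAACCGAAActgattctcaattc
Tgtp2 (chr11:49064213-49064332, minus strand): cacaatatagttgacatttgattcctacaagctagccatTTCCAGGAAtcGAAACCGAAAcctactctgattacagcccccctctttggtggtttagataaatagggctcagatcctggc
Igtp (chr11:58199436-58199555, plus strand): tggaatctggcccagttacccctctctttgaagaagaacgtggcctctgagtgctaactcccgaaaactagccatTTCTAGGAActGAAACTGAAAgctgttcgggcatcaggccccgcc
Irgm2 (chr11:58214857-58214976, plus strand): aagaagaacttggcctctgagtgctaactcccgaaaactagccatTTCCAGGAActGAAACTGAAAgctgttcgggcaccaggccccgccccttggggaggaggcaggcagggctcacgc

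Gbp2 carried a single ISRE core with no GAS, and Irgm1 carried a pair of overlapping ISRE cores that began 30 and 24 bases before the start. In Gbp7 the GAS matches lay 34 and 53 bases away from the ISRE core. In Tgtp2, Igtp and Irgm2 a GAS began exactly 11 bases before the ISRE core, so that the elements nearly touched. That spacing was looked for after it had been seen in these genes, and it occurred in 5 of the 32851 windows, which belong to Tgtp1, Gm12185, Tgtp2, Igtp and Irgm2. The regions upstream of Igtp and Irgm2 shared an identical run of 55 bases. A match describes the letters only, and was not tested as a site.

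Without priming, the GTPase genes were higher in knockout than in wild-type macrophages. The log2 fold change of Ninj1KO_NoPrime over WT_NoPrime was positive for 10 of 10 genes, with a median of 0.52 against 0.00 over all tested genes, and 7 genes passed the edgeR quasi-likelihood test at an adjusted p under 0.05, compared with 1.92% of all tested genes called higher. None passed as lower, where 1.12% of all tested genes did. All 5 IRGs of chromosome 11 passed, and for each of them the 6 knockout libraries lay above the 6 wild-type libraries. Such a complete separation was seen upward in 2.16% of all tested genes. The remaining passes were Gbp2 and Gbp5.

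**Figure D1:**
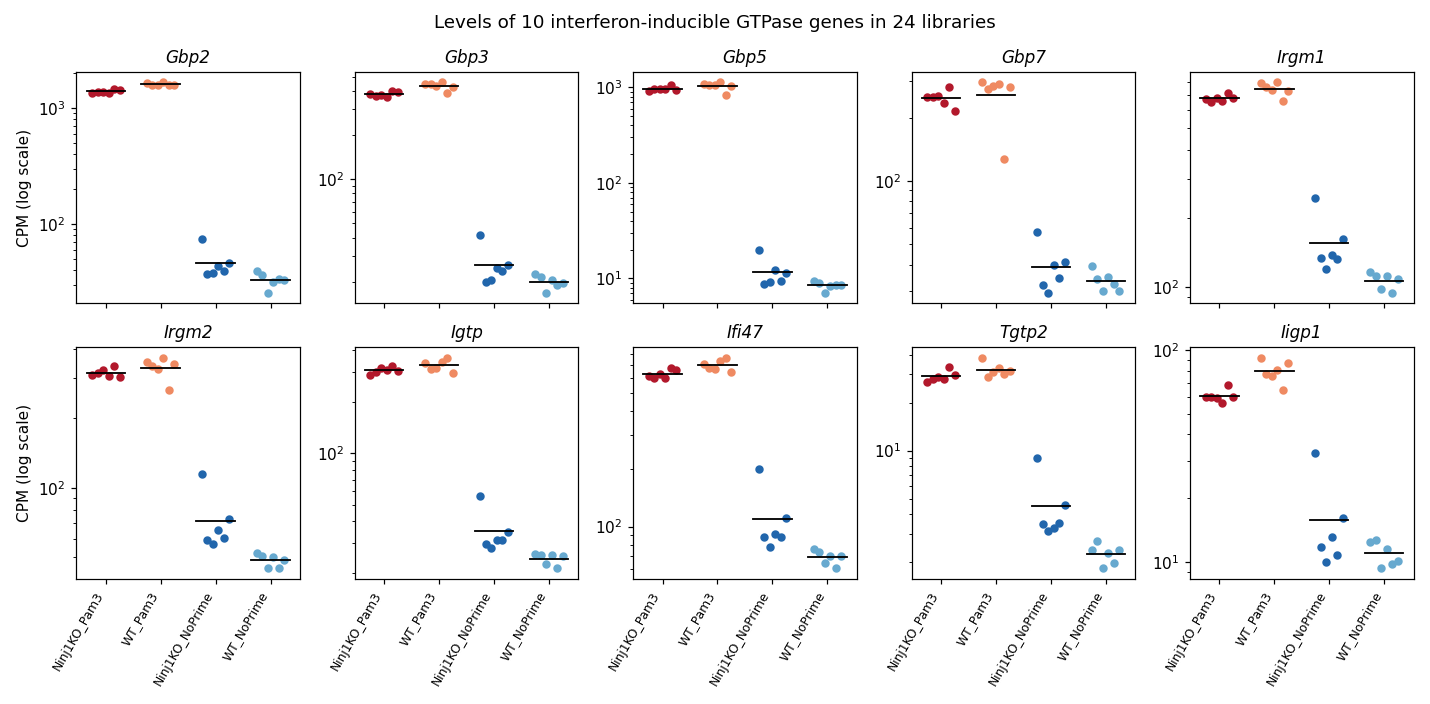
Level of each of the 10 GTPase genes in CPM (y axis, log scale) in 24 libraries; each point is a library, the groups are Ninj1KO_Pam3, WT_Pam3, Ninj1KO_NoPrime and WT_NoPrime from left to right, and bars are group means. All Pam3 libraries lie above all NoPrime libraries for every gene, and 1 Ninj1KO_NoPrime library lies above the other 5 for every gene.

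Irgm1, a membrane-bound IRG that regulates the effector IRGs and autophagy, ranged over 120, 136 and 247 CPM (lowest, median and highest library) in Ninj1KO_NoPrime and over 94.2, 110 and 116 CPM in WT_NoPrime. Its 6 knockout values all lay above the wild-type values, the highest of them well above the other 5. The log2 fold change was 0.55 ± 0.11 (SE, adjusted p = 0.0052), or 1.46-fold.

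Irgm2, another regulator, which in mouse macrophages also restrains caspase-11 responses to bacterial lipopolysaccharide, ranged over 57.3, 63.2 and 115 CPM in Ninj1KO_NoPrime and over 44.9, 49.4 and 52.2 CPM in WT_NoPrime. Igtp, also known as Irgm3, ranged over 28.0, 31.2 and 56.2 CPM in Ninj1KO_NoPrime and over 21.3, 25.3 and 25.7 CPM in WT_NoPrime. Both pairs of groups were fully separated. The log2 fold changes were 0.57 ± 0.12 for Irgm2 (adjusted p = 0.0056) and 0.53 ± 0.11 for Igtp (adjusted p = 0.0075). With Irgm1, the 3 regulators thus differed between genotypes by nearly the same factor, 1.44 to 1.48-fold.

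Ifi47, also called Irgd, and Tgtp2, whose product is known as Irgb6 and loads onto Toxoplasma vacuoles, had the largest differences of the 10 genes. Ifi47 ranged over 78.1, 89.9 and 201 CPM in Ninj1KO_NoPrime and over 60.6, 70.2 and 75.9 CPM in WT_NoPrime, a log2 fold change of 0.66 ± 0.15 (adjusted p = 0.0096). Tgtp2 ranged over 3.14, 3.48 and 9.02 CPM in Ninj1KO_NoPrime and over 1.83, 2.32 and 2.73 CPM in WT_NoPrime. Its log2 fold change was 0.98 ± 0.20 (adjusted p = 0.0050), or 1.97-fold, with the uncertainty from its copy Tgtp1. Tgtp1 itself averaged 0.112 CPM in Ninj1KO_NoPrime and 0.0408 CPM in WT_NoPrime.

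Among the GBPs, Gbp2, which helps attack bacteria in the cytosol, ranged over 37.2, 41.6 and 74.9 CPM in Ninj1KO_NoPrime and over 25.7, 33.2 and 39.3 CPM in WT_NoPrime. The groups overlapped, with 3 of 6 knockout libraries above every wild-type library, and the log2 fold change was 0.49 ± 0.12 (adjusted p = 0.022). Gbp5, which promotes assembly of the NLRP3 inflammasome, ranged over 8.77, 10.4 and 19.7 CPM in Ninj1KO_NoPrime and over 7.08, 8.49 and 9.30 CPM in WT_NoPrime. Its log2 fold change was 0.48 ± 0.14 with an adjusted p of 0.0496, just inside the threshold. The genes that did not pass were Gbp3 (0.38 ± 0.12, adjusted p = 0.079), Gbp7 (0.23 ± 0.16, adjusted p = 0.63) and the effector Iigp1 (0.51 ± 0.19, adjusted p = 0.19), all of which overlapped between genotypes.

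The size of these differences rested in part on Ninj1KO_NoPrime replicate 1, which lay 1.65 to 2.78 times above the median of the other 5 libraries of its group. Without it, the median log2 fold change of the 10 genes was 0.32 and all 10 remained positive. The 5 chromosome 11 IRGs and Gbp2 still passed, with 0.37 for Irgm1, 0.38 for Irgm2, 0.35 for Igtp, 0.40 for Ifi47, 0.67 for Tgtp2 and 0.30 for Gbp2, while 1.51% of all genes were called higher. The 5 remaining knockout libraries still lay above all wild-type libraries for each of those 5 IRGs. Irgm1 spanned 120 to 162 CPM in Ninj1KO_NoPrime without that library and 94.2 to 116 CPM in WT_NoPrime. The share of all tested genes separated in this way without that library was not computed, so the separation has no background to be read against. Gbp5 no longer passed (0.28, adjusted p = 0.098).

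**Figure D2:**
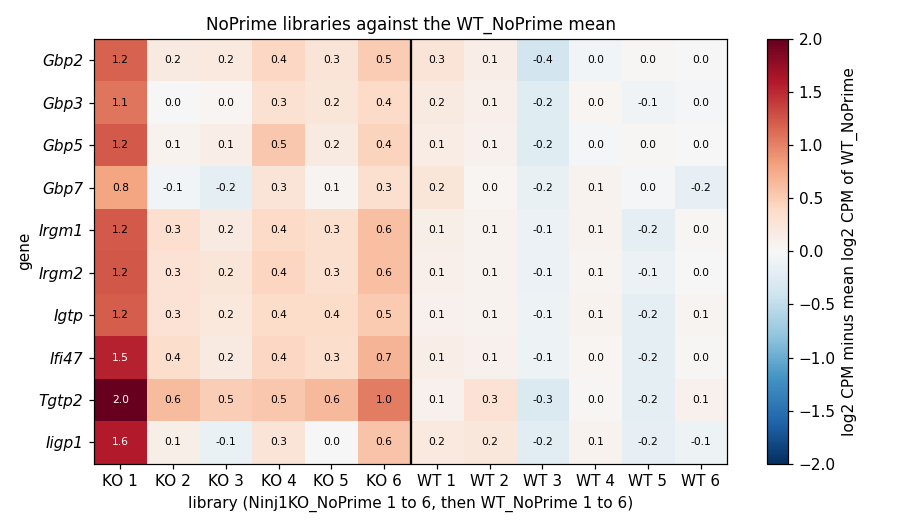
Log2 CPM of each GTPase gene in each NoPrime library minus the mean log2 CPM of WT_NoPrime (colour and printed value); columns are Ninj1KO_NoPrime libraries 1 to 6 and then WT_NoPrime libraries 1 to 6. Library 1 of Ninj1KO_NoPrime is the highest in every row, and the other 5 knockout libraries are positive in the rows of the chromosome 11 IRGs.

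Marker genes of some other cell types moved with genotype in NoPrime too. For scale, 1.92% of all tested genes were called higher there. Granulocyte markers summed to 82.4 to 95.04 CPM in Ninj1KO_NoPrime and 60.6 to 71.4 CPM in WT_NoPrime, with 4 of 8 called higher. Stromal markers summed to 51.8 to 94.9 CPM in Ninj1KO_NoPrime and 38.5 to 49.2 CPM in WT_NoPrime, with 6 of 8 called higher. Dendritic cell markers summed to 8.97 to 11.2 CPM in Ninj1KO_NoPrime and 6.77 to 8.54 CPM in WT_NoPrime, with 1 of 5 tested markers called higher. None of the 3 sums overlapped between genotypes. Their part in the difference of the GTPase genes was not tested. In Ninj1KO_NoPrime replicate 1 the granulocyte and stromal sums were 95.04 and 53.1 CPM, and the dendritic cell sum of 11.2 CPM was the highest of its group, against 8.97 to 9.69 CPM in the other 5 libraries. In bulk RNA, more cells of a kind and more RNA per cell cannot be told apart.

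After Pam3 a difference between genotypes was not detected by the same test. None of the 10 genes passed in either direction (edgeR quasi-likelihood test; 1.31% of all tested genes were called higher and 2.75% lower), and 1 gene, Iigp1, had an unadjusted p under 0.05. DESeq2 and limma on the deposited RPKM also called none. The DESeq2 count of all genes called lower is given in the closing section. The log2 fold changes of Ninj1KO_Pam3 over WT_Pam3 were nevertheless negative for 10 of 10 genes, with a median of -0.14 against -0.01 over all tested genes, and ran between -0.39 and -0.06. The 95% intervals of 9 genes included 0; the interval of Iigp1 was -0.75 to -0.03.

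Marker genes of some cell types moved with genotype after Pam3 as well. No tested B cell or NK and T cell marker was called between genotypes after Pam3. For scale, 1.31% of all tested genes were called higher there and 2.75% lower. Macrophage markers summed to 31510 to 33132 CPM in Ninj1KO_Pam3 and 33409 to 37975 CPM in WT_Pam3, without overlap, with 2 of 8 called lower and 1 higher. Granulocyte markers summed to 48.7 to 57.0 CPM in Ninj1KO_Pam3 and 39.2 to 62.3 CPM in WT_Pam3, and stromal markers to 134 to 180 CPM in Ninj1KO_Pam3 and 97.4 to 136 CPM in WT_Pam3, with 2 of 8 called higher in each list. Dendritic cell markers summed to 13.04 to 16.04 CPM in Ninj1KO_Pam3 and 11.5 to 15.8 CPM in WT_Pam3, with 1 of 5 tested markers called higher. Their part in the values of the GTPase genes was not tested.

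Gbp2 was the gene whose groups did not overlap, at 1342, 1366 and 1454 CPM in Ninj1KO_Pam3 and 1564, 1584 and 1660 CPM in WT_Pam3. A complete separation downward was seen in 1.63% of all tested genes. Its log2 fold change was -0.21 ± 0.11 (adjusted p = 0.37), in a fit that takes 1 estimate of the spread from all 24 libraries. Fitted on the 12 Pam3 libraries alone, Gbp2 passed (-0.20, adjusted p = 0.015), as did Iigp1 (-0.38, adjusted p = 0.025), against 0.879% of all genes called lower.

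Iigp1, the effector that disrupts the Toxoplasma vacuole, lies apart from the other IRGs on chromosome 18 (chr18:60376027-60392634, plus strand). It ranged over 56.1, 59.9 and 68.6 CPM in Ninj1KO_Pam3 and over 64.7, 78.7 and 91.8 CPM in WT_Pam3. The groups overlapped in a single knockout library. Its log2 fold change of -0.39 ± 0.18 had an adjusted p of 0.26. In the fit without Ninj1KO_NoPrime replicate 1 it was -0.37 with an adjusted p of 0.020; the cause was not tested.

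Irgm1 ranged over 655, 674 and 716 CPM in Ninj1KO_Pam3 and over 662, 746 and 796 CPM in WT_Pam3, and Ifi47 over 601, 621 and 672 CPM in Ninj1KO_Pam3 and over 643, 688 and 762.5 CPM in WT_Pam3. Both overlapped, and neither passed (-0.14 ± 0.11 and -0.15 ± 0.14, adjusted p = 0.57 and 0.66). Gbp7, linked in mouse cells to NADPH oxidase assembly at vacuoles, was 127 CPM in WT_Pam3 replicate 5, against 274 to 294 CPM in the other 5 libraries of that group. It spanned 214 to 279 CPM in Ninj1KO_Pam3. Gbp5 was likewise lowest in that library, at 840 CPM against 1043 to 1130 CPM in the other 5, and spanned 926 to 1057 CPM in Ninj1KO_Pam3.

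With both libraries that stood apart left out, 6 of the 10 genes passed as lower in Ninj1KO_Pam3: Gbp2 (-0.21), Gbp3 (-0.22), Gbp5 (-0.15), Gbp7 (-0.20), Irgm1 (-0.17) and Iigp1 (-0.44). In that fit 6.44% of all genes were called lower, and the median over the 10 genes was -0.16. Without WT_Pam3 replicate 5 alone, none passed, when 826 of 14566 genes were called lower, and the median was likewise -0.16.

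**Figure D3:**
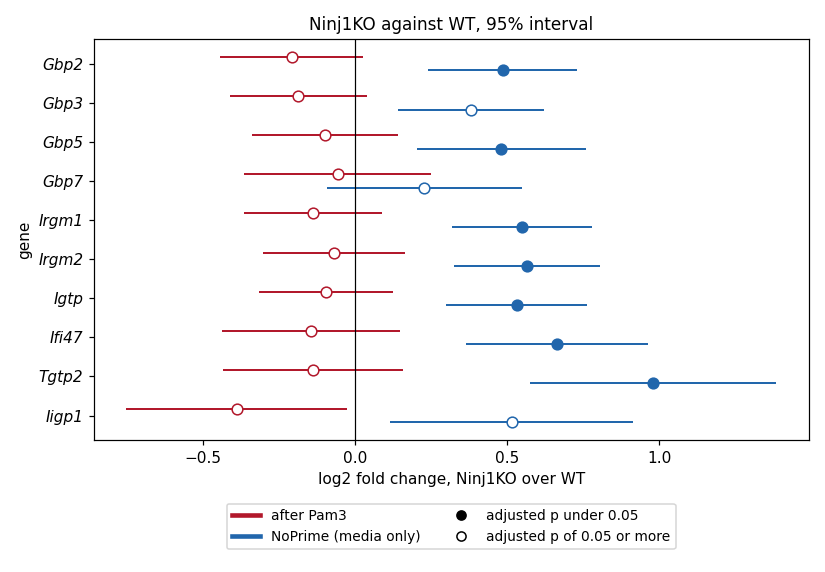
Log2 fold change of Ninj1KO over WT (x axis) for each GTPase gene, after Pam3 (red, upper of each pair) and in NoPrime (blue, lower), with 95% intervals; filled points have an adjusted p under 0.05 (edgeR quasi-likelihood test). The 7 filled points are all NoPrime values, between 0.48 and 0.98, and all 10 Pam3 values are open and below 0.

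Pam3 raised all 10 genes in both genotypes, and in each case the 6 Pam3 libraries lay above the 6 NoPrime libraries. For scale, 40.2% of all tested genes were called higher after Pam3 in knockout cells and 40.6% in wild-type cells, and 36.0% and 32.5% were fully separated upward. The size was large: the median log2 fold change of the 10 genes was 2.69 in knockout cells and 3.54 in wild-type cells, against -0.07 and -0.05 over all tested genes. Together the 10 genes took 0.427 ± 0.012% of all counts in Ninj1KO_Pam3 and 0.0615 ± 0.0197% in Ninj1KO_NoPrime (SD, n = 6). They took 0.457 ± 0.021% in WT_Pam3 and 0.0423 ± 0.0035% in WT_NoPrime.

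The GBPs covered a wide range. Gbp5 rose most, by 6.36 ± 0.15 on the log2 scale in knockout cells (82.2-fold; 926, 956 and 1057 CPM in Ninj1KO_Pam3) and by 6.94 ± 0.15 in wild-type cells (123-fold; 840, 1057 and 1130 CPM in WT_Pam3). Gbp2 followed with 4.90 ± 0.14 in knockout and 5.59 ± 0.14 in wild-type cells (29.8-fold and 48.2-fold), and Gbp3 with 3.86 ± 0.12 and 4.43 ± 0.13. Gbp7 rose least among them, by 2.66 ± 0.16 in knockout and 2.95 ± 0.16 in wild-type cells.

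The IRGs moved within a narrower range. Log2 fold changes in knockout and then wild-type cells were 3.12 ± 0.12 and 3.75 ± 0.12 for Igtp, 2.71 ± 0.16 and 3.83 ± 0.18 for Tgtp2, and 2.52 ± 0.15 and 3.33 ± 0.16 for Ifi47. They were 2.13 ± 0.12 and 2.77 ± 0.12 for Irgm2, and 2.12 ± 0.11 and 2.81 ± 0.12 for Irgm1. Iigp1 had the smallest value in knockout cells, 1.95 ± 0.19, and 2.85 ± 0.19 in wild-type cells. The adjusted p in edgeR's test was at most 2.5e-10 for all 10 genes in both genotypes.

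**Figure D4:**
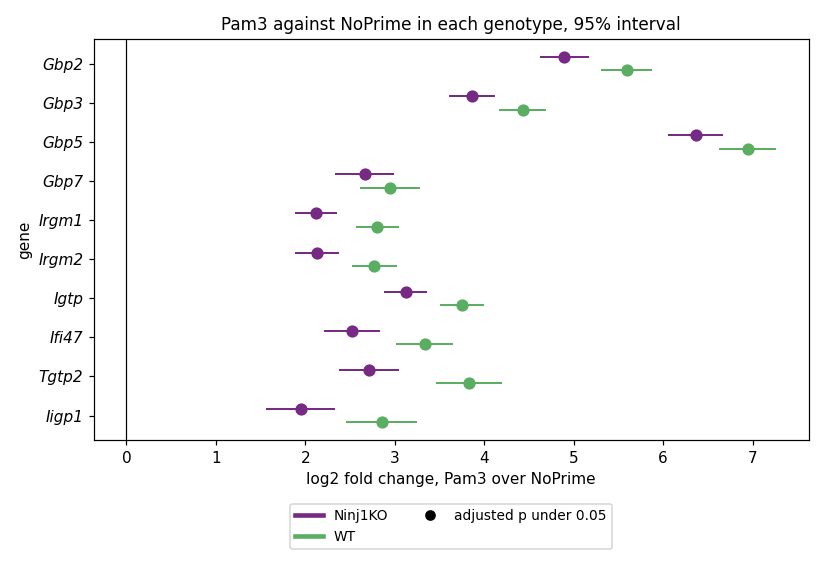
Log2 fold change of Pam3 over NoPrime (x axis) for each GTPase gene in Ninj1KO (purple, upper of each pair) and WT cells (green, lower), with 95% intervals. All 20 values lie between 1.95 and 6.94, and the knockout value is the smaller of the pair for every gene.

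The knockout response to Pam3 was smaller than the wild-type response for 10 of 10 genes, and the difference itself passed the test for 3. This difference is the genotype effect after Pam3 minus that in NoPrime, so it uses the same libraries as both comparisons above and is not independent of them. Its median was -0.66 against -0.02 over all tested genes, and 0.589% of all tested genes were called lower. The genes that passed were Tgtp2 (-1.12 ± 0.24, adjusted p = 0.026), Irgm1 (-0.69 ± 0.16, adjusted p = 0.033) and Gbp2 (-0.69 ± 0.16, adjusted p = 0.041). Igtp (-0.63, adjusted p = 0.052), Ifi47 (-0.81, adjusted p = 0.055) and Irgm2 (-0.64, adjusted p = 0.062) missed the threshold narrowly, and Gbp7 was farthest from it (-0.29, adjusted p = 0.60).

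Whether genes passed depended on single libraries. Leaving out each of the 24 libraries in turn gave 0 to 9 genes called lower. None were called without Ninj1KO_Pam3 replicate 3 or 4 or WT_NoPrime replicate 3, 4 or 5. The sizes changed little in those fits: the median over the 10 genes was -0.67 to -0.60, against -0.66 in the main fit, and all 10 values were negative. Without WT_Pam3 replicate 5, 9 were called, when 3.03% of all genes were called lower. Without Ninj1KO_NoPrime replicate 1 there were 6, Gbp2, Irgm1, Irgm2, Igtp, Ifi47 and Tgtp2, with a median of -0.46 over the 10 genes and 0.666% of all genes called lower. With both libraries that stood apart left out there were 9, all but Gbp7, with a median of -0.51 and 2.83% of all genes called lower. DESeq2 called 8, against 1.10% of the 27541 genes with any count, a larger base than the 14435 filtered genes of the main fit.

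Levels between genes were compared per transcript length, as the deposited size-factor-adjusted RPKM. Gbp2 was the most abundant after Pam3, with 500 ± 18 RPKM in Ninj1KO_Pam3 and 579 ± 15 RPKM in WT_Pam3 (SD, n = 6), above all values of the next gene in both groups. Ifi47 (304 ± 15 and 337 ± 21 RPKM), Gbp5 (287 ± 15 and 308 ± 31 RPKM) and Irgm1 (266 ± 10 and 293 ± 20 RPKM) came next and overlapped with their neighbours. Igtp, Gbp3, Irgm2, Gbp7, Iigp1 and Tgtp2 followed in that order in both genotypes, down to 9.43 ± 0.74 RPKM in Ninj1KO_Pam3 and 10.4 ± 1.1 RPKM in WT_Pam3 for Tgtp2. Igtp and Gbp3 overlapped in WT_Pam3, as did Gbp7 and Iigp1.

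In NoPrime the order was different, with the IRGs Irgm1 (46.4 to 95.2 RPKM in Ninj1KO_NoPrime, 36.1 to 44.6 RPKM in WT_NoPrime) and Ifi47 (37.0 to 94.97 and 28.5 to 35.9 RPKM) on top. Irgm2, Gbp2 and Igtp formed an overlapping middle group at 15.4 to 17.3 RPKM in Ninj1KO_NoPrime and 10.7 to 11.8 RPKM in WT_NoPrime. Gbp5 was at rank 9 of 10 in both genotypes (3.42 ± 1.19 and 2.46 ± 0.22 RPKM), against rank 3 after Pam3. Tgtp2 was the lowest in all 4 groups, with 1.42 ± 0.72 RPKM in Ninj1KO_NoPrime and 0.716 ± 0.105 RPKM in WT_NoPrime.

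**Figure D5:**
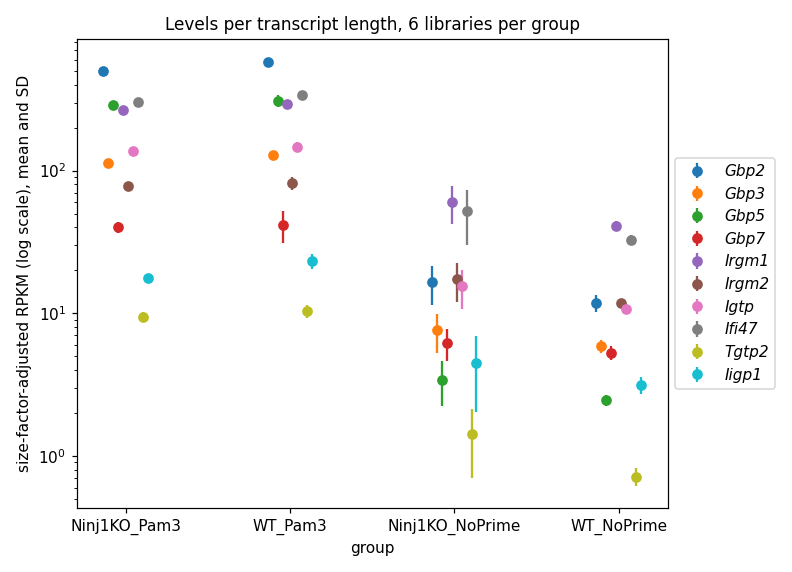
Size-factor-adjusted RPKM of each GTPase gene (y axis, log scale; mean and SD of 6 libraries) in the 4 groups. Gbp2 leads in both Pam3 groups, Irgm1 and Ifi47 lead in both NoPrime groups, and Gbp5 is at rank 3 after Pam3 and rank 9 in NoPrime.

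Other GTPases of these families were also called in 1 direction only between genotypes without priming. Of 17 further family members and relatives, 15 were tested, and 3 were higher in Ninj1KO_NoPrime than in WT_NoPrime with none lower and a median log2 fold change of 0.44 over the 15: Gm12250, which encodes the IRG effector Irgb10 (log2 fold change 0.67 ± 0.15, adjusted p = 0.014), and the dynamin-like antiviral GTPases Mx1 (0.61, adjusted p = 0.044) and Mx2 (0.61, adjusted p = 0.043). The share of all tested genes called higher was 1.92%. The count was 1 without Ninj1KO_NoPrime replicate 1 (1.51% of all genes), 5 without WT_Pam3 replicate 5 (4.52%) and 4 without both (3.72%). None passed after Pam3 between genotypes, and 4 were lower without both libraries (6.44% of all genes). Pam3 raised 12 of the 15 in each genotype, where 40.2% of all tested genes rose in knockout and 40.6% in wild-type cells, with Gbp6 at 4.72 in knockout and 5.62 in wild-type cells. Counts of Gbp6 are uncertain, since 70.7% of its 50-base stretches also occur in other genes. Gbp8 fell by 2.13 in knockout and 1.61 in wild-type cells. Gm12250 was the 1 relative whose Pam3 response passed as different between genotypes (-0.89 ± 0.21, adjusted p = 0.038), where 0.589% of all tested genes were called lower. That count was 3 without Ninj1KO_NoPrime replicate 1 (0.666% of all genes), 5 without WT_Pam3 replicate 5 (3.03%) and 5 without both (2.83%).

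Genes upstream of the GTPases followed in part. Of 19 tested interferon ligands, receptors and signalling genes, 6 were higher and none lower in Ninj1KO_NoPrime, against 1.92% of all tested genes called higher. The count was 6 without Ninj1KO_NoPrime replicate 1 (1.51% of all genes), 7 without WT_Pam3 replicate 5 (4.52%) and 6 without both (3.72%). Among them were Irf7, which amplifies type I interferon (0.82), Irf9 and Stat2, which act together at the ISRE (0.30 and 0.54), and the feedback gene Usp18 (0.65).

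Irf1, a transcription factor that drives GBP genes, was lower in knockout cells after Pam3. It ranged over 692, 716 and 811 CPM in Ninj1KO_Pam3 and over 803, 927 and 994 CPM in WT_Pam3, a log2 fold change of -0.33 ± 0.06 (adjusted p = 0.0021). Irf1 was the 1 gene of the 19 called lower there, against 2.75% of all tested genes. The count was 1 without Ninj1KO_NoPrime replicate 1, 2 without WT_Pam3 replicate 5 and 2 without both. Over all genes, 826 were lower after Pam3 without WT_Pam3 replicate 5, against 397 in the main fit. In NoPrime Irf1 did not pass (0.20 ± 0.06, adjusted p = 0.085). Its Pam3 response was smaller in knockout cells by -0.53 ± 0.09 on the log2 scale (adjusted p = 0.0090). So were those of Irf7 and Irf9, which made 3 of the 19, against 0.589% of all tested genes. That count was 5 without Ninj1KO_NoPrime replicate 1, 8 without WT_Pam3 replicate 5 and 7 without both. Over all genes, 442 were lower for this difference without WT_Pam3 replicate 5, against 85 in the main fit.

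The interferons themselves were scarce. Ifnb1, encoding interferon-beta, had 159 counts over the 6 Ninj1KO_Pam3 libraries and 165 over WT_Pam3, and 3 counts over Ninj1KO_NoPrime and 2 over WT_NoPrime. Ifng, encoding interferon-gamma, had 21 and 29 counts in Ninj1KO_Pam3 and WT_Pam3, and 0 and 1 in Ninj1KO_NoPrime and WT_NoPrime, and was too low to test. A count of 0 over the libraries of a group allows up to 3, so a difference in Ifng without priming was not detectable at this depth. Ifnb1 did not pass between genotypes, at -0.17 ± 0.18 after Pam3 (adjusted p = 0.69) and 0.46 ± 0.85 in NoPrime (adjusted p = 0.92).

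Antiviral genes that type I interferon induces were also higher in knockout cells in NoPrime: 18 of 22 passed and none were lower, against 1.92% of all tested genes called higher, with a median log2 fold change of 0.58, among them Ifit3 (0.97), Ifit1 (0.81), Oasl2 (0.79), Xaf1 (0.70) and Rtp4 (0.65). The count was 17 without Ninj1KO_NoPrime replicate 1 (1.51% of all genes), 22 without WT_Pam3 replicate 5 (4.52%) and 21 without both (3.72%). None passed after Pam3 between genotypes, and 6 were lower without both libraries (6.44% of all genes). In 5 the Pam3 response was smaller in knockout cells, against 0.589% of all tested genes. This count was 12 without Ninj1KO_NoPrime replicate 1 (0.666% of all genes), 21 without WT_Pam3 replicate 5 (3.03%) and 21 without both (2.83%).

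Genes known mainly as interferon-gamma targets in antigen presentation and macrophage activation had a median log2 fold change of 0.15 in NoPrime, where 2 of 15, Tap1 (0.45) and B2m (0.19), were higher in knockout cells. The share of all tested genes called higher was 1.92%. The list count was 1 without Ninj1KO_NoPrime replicate 1 (1.51% of all genes), 8 without WT_Pam3 replicate 5 (4.52%) and 6 without both (3.72%). Cxcl9 (-0.40) and Ciita (-0.35) were lower in Ninj1KO_Pam3, against 2.75% of all tested genes. The count of list genes called lower was 1 without Ninj1KO_NoPrime replicate 1, 4 without WT_Pam3 replicate 5 and 5 without both (6.44% of all genes). Over all genes, 826 were lower without WT_Pam3 replicate 5, against 397 in the main fit. The Pam3 response was smaller in knockout cells for all 15 genes, with a median difference of -0.30. Of these 1, Tap1, passed, against 0.589% of all tested genes. That count was 1 without Ninj1KO_NoPrime replicate 1, 9 without WT_Pam3 replicate 5 and 9 without both. Over all genes, 442 were lower for this difference without WT_Pam3 replicate 5, against 85 in the main fit. Whether the lists differed from each other was not tested.

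Of the genes that act with these GTPases at vacuoles, 1 passed in each direction in NoPrime, and 4 passed as lower after Pam3. Of 17 tested ATG8-conjugation, ubiquitin and damaged-vacuole genes, the ubiquitin ligase Trim21 was higher (0.25, adjusted p = 0.029) and the autophagy receptor Optn lower (-0.14, adjusted p = 0.044) in Ninj1KO_NoPrime, where 1.92% of all tested genes were called higher and 1.12% lower. Without Ninj1KO_NoPrime replicate 1, the NoPrime counts of this list were 1 higher and 0 lower. In Ninj1KO_Pam3, 4 of 17 were lower and none higher, against 2.75% of all tested genes called lower: Lgals3 (-0.29), Optn (-0.15), Atg5 (-0.14) and Atg7 (-0.14). The count was 2 without Ninj1KO_NoPrime replicate 1, 4 without WT_Pam3 replicate 5 and 4 without both (6.44% of all genes). Over all genes, 826 were lower without WT_Pam3 replicate 5, against 397 in the main fit. Of 10 inflammasome genes downstream of GBPs, Ninj1 was the 1 called between genotypes under either treatment. Without WT_Pam3 replicate 5, 3 were called higher in Ninj1KO_NoPrime, as were 4.52% of all genes. Pam3 raised 9 of the 10 in knockout and 8 in wild-type cells, against 40.2% and 40.6% of all tested genes, with Il1b at 12.24 and 12.93 and Casp4, the gene of the lipopolysaccharide sensor caspase-11, at 3.51 and 3.90 on the log2 scale.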

How the data were processed

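RNA sequencing of 24 mouse macrophage libraries (polyA RNA, TruSeq v2 kit, which does not mark strand, single-end 50-base reads, per the labels' protocols) was aligned with GSNAP to GRCm38, per the submitters' processing notes. Counts are uniquely aligned reads per gene model, not normalized, per the file headers. RPKM values, adjusted by a size factor, were made by the authors, per the file headers. Symbols and coordinates came from GENCODE mouse release 21, which matched 52489 of 52636 models; the other 147 held 0.0039% of the reads. No 2 libraries agreed within sampling noise (chi-square per degree of freedom at least 2.54 over 60 within-group pairs; 116 to 142 in the 5 pairs with WT_Pam3 replicate 5, at most 16.2 in the other 55). Total counts differed between no compared groups (exact two-sided permutation tests, p = 0.21 to 0.46).

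Counts were tested in R 4.3.3 with edgeR 4.0.16 (TMM, filterByExpr, quasi-likelihood F-test, a mean per group, all 24 libraries, no covariate), and p-values were adjusted by Benjamini-Hochberg over 14435 genes. The biological coefficient of variation was 8.21%. CPM use TMM-adjusted library sizes. DESeq2 1.42.0 and limma 3.58.1 on log2(RPKM + 0.1) and log2(RPKM + 1) were alternatives, with the settings given in the closing section. The tests were checked on simulated counts. Groups come from genotype and treatment labels, and replicate numbers follow deposition order and pair nothing.

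The 10 genes and all lists were chosen with earlier results of these data known. From each list up to 5 genes with the smallest adjusted p were named for genotype contrasts and up to 4 with the largest change for Pam3 responses, together with Ninj1, Irf1, Irf9, Ifng, Ifnb1 and Ciita; 1 further gene of this rule is not reported here. Promoter windows are RefSeq sequences (GRCm38.p6), and protein sequences were not analysed here.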

Additional observations from a re-analysis of the deposited data

Results flagged for a closer look

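In 52 groups of 6 libraries examined gene by gene, 16 had a library far from the other 5, where chance gives about 1 in 20, or 2.6 groups. Ninj1KO_NoPrime replicate 1 was that library for 10 genes. Its levels were 74.9 CPM for Gbp2, 42.0 for Gbp3, 19.7 for Gbp5, 247 for Irgm1, 115 for Irgm2 and 56.2 for Igtp. They were 32.8 CPM for Iigp1, 201 for Ifi47, 9.02 for Tgtp2 and 124 for Irf1. The genes share this library, so these are not independent events. For Gbp7 the same library was also the highest of its group, at 57.2 CPM, but not far enough to be set apart. Its summed granulocyte markers were 95.04 CPM, against 82.4 to 94.6 CPM in the other 5 libraries, and its NK and T cell markers summed to 1.96 CPM, the highest of the group, against 1.01 to 1.45 CPM. Their part in the result was not tested.

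WT_Pam3 replicate 5 stood apart with low Gbp5 (840 CPM) and Gbp7 (127 CPM) and with high Ninj1 (1145 CPM, against 646 to 810 CPM). Its granulocyte markers summed to 62.3 CPM, against 39.2 to 43.5 CPM in the other 5 libraries, and its stromal markers to 97.4 CPM, against 120 to 136 CPM. Their part in the result was not tested. Ninj1KO_Pam3 replicate 5 was high for Gbp5 (1057 CPM) and Iigp1 (68.6 CPM), and Ninj1KO_Pam3 replicate 6 was high for Ninj1 (479 CPM, against 409 to 433 CPM).

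The Pam3 response in knockout minus that in wild-type cells passed the edgeR interaction test for 13 of the genes named. Over all tested genes, 0.589% were called lower. Genes were named in part for being called in this or another contrast, so the count follows in part from that choice. The values were -0.69 for Gbp2, -0.69 for Irgm1, -1.12 for Tgtp2 and -0.89 for Gm12250 on the log2 scale. For signalling genes they were -0.53 for Irf1, -0.27 for Irf9 and -0.83 for Irf7. For interferon targets they were -0.78 for Oasl2, -0.79 for Xaf1, -0.75 for Rtp4, -1.18 for Ifit3, -0.96 for Ifit1 and -0.60 for Tap1.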

How the results depend on the processing

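The calls of Irgm1, Irgm2, Igtp, Ifi47 and Tgtp2 as higher in Ninj1KO_NoPrime held under all 33 alternatives, and all 10 Pam3 responses held in both genotypes. Leaving out a library of a group outside a contrast alters the shared fit alone, so such alternatives probe that contrast little. In the alternatives that left out 1 Pam3 library, the NoPrime median of the 10 genes stayed at 0.52. Gbp2 lost its NoPrime call in 1 alternative, without WT_NoPrime replicate 3 (0.42, adjusted p = 0.066), and Gbp5 in 24. The calls for the difference in Pam3 response were lost in 20 alternatives for Gbp2, 14 for Irgm1 and 7 for Tgtp2. The causes were not tested. No paired analysis was possible because the replicate numbers follow deposition order and pair no samples.

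Counts that moved by over 1.5 times are given here by setting. Fitting the groups compared alone gave 581 genes higher and 531 lower in Ninj1KO_NoPrime, and 63 higher and 114 lower in Ninj1KO_Pam3, with 2 of the 10 GTPase genes and 5 genes of the 6 lists lower. Leaving out both libraries that stood apart gave 541 higher and 515 lower in Ninj1KO_NoPrime, 389 higher and 936 lower in Ninj1KO_Pam3 (6 GTPase genes lower; 1 list gene higher and 23 lower), and 91 higher and 411 lower for the difference in response (9 GTPase genes and 44 list genes lower). DESeq2 gave 271 lower in Ninj1KO_NoPrime, 599 lower in Ninj1KO_Pam3, and 85 higher and 302 lower for the difference in response (8 GTPase genes and 34 list genes lower). Library size alone gave 412 higher and 220 lower in Ninj1KO_Pam3, 3685 and 3584 genes higher after Pam3 in knockout and wild-type cells, 54 lower for the difference in response, and 1 list gene lower in Ninj1KO_NoPrime, 1 higher and 3 lower in Ninj1KO_Pam3, and 18 and 17 lower after Pam3 in knockout and wild-type cells. That scaling shifted the median of all genes to -0.56 and -0.58 in the 2 Pam3 responses, and turned Ciita to -0.45 and -0.18 and Atg5 to -0.44 and -0.38 in knockout and wild-type cells. Without a filter on low counts, 183 genes were lower in Ninj1KO_Pam3 and 41 for the difference in response, with 5 GTPase genes, and 1 list gene was lower in Ninj1KO_NoPrime and 3 in Ninj1KO_Pam3. In RPKM, a pseudocount of 1 gave 43 genes higher and 1 GTPase gene lower for the difference in response, and a pseudocount of 0.1 gave 0 GTPase genes and 6 list genes lower.

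Leaving out each library in turn gave 5 to 8 GTPase genes higher in Ninj1KO_NoPrime, 0 to 1 lower in Ninj1KO_Pam3 and 0 to 9 lower for the difference in response. Over all genes it gave 154 to 658 higher and 84 to 616 lower in Ninj1KO_NoPrime, 106 to 352 higher and 267 to 826 lower in Ninj1KO_Pam3, and 8 to 102 higher and 20 to 442 lower for the difference in response. Over the 6 lists it gave 22 to 47 higher and 1 to 2 lower in Ninj1KO_NoPrime, 0 to 1 higher and 4 to 12 lower in Ninj1KO_Pam3, and 1 to 45 lower for the difference in response.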
